A study of Mus musculus with 6 samples.

Results

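Sterol regulatory element-binding proteins (SREBPs) are transcription factors that switch on the enzymes of cholesterol and fatty acid synthesis. The 36 genes described here were taken by gene symbol from a list of SREBP regulators, sterol enzymes and fatty acid enzymes, out of 45193 genes in a table of raw counts. They fall into 5 regulators, 19 members of a sterol arm and 12 members of a fatty acid arm. Each symbol matched 1 Ensembl gene, and 35 of the 36 had enough reads to be tested. Messenger RNA had been sequenced from mouse bone marrow-derived macrophages, 3 libraries from wild-type (WT) C57BL/6J mice and 3 from RXRa and RXRb knockout (RXRKO) mice. The knockout genotype is labelled RXRafl/flLysMCre RXRb-/-, that is, Rxra alleles flanked by loxP sites, Cre recombinase driven from the lysozyme M gene of myeloid cells, and Rxrb lost from all cells. Rxra and Rxrb encode retinoid X receptors, partners of many other nuclear receptors. Marrow cells of both genotypes grew for 6 days with 20% serum and 30% L929-conditioned medium, which supplies CSF-1. On the evening of day 5 all went into serum-free medium, and all were then held for 3 hours with DMSO, the vehicle, and none with a ligand. No age or sex of the mice is given in the labels, and the WT cells are not said to carry Cre. Loss of RXR, presence of Cre and the altered Lyz2 locus therefore came together and cannot be told apart. No member lies within 10 Mb of Rxra, Rxrb or Lyz2, and the nearest, Acat2, is 21.1 Mb from Rxrb.

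The way the pathway works is textbook knowledge. SREBP precursors sit in the membrane of the endoplasmic reticulum bound to the escort protein SCAP, and INSIG proteins hold that complex there while sterols are plentiful. When sterols fall, the complex moves to the Golgi, where proteases release the active factor. The protein from Srebf2 acts mostly on cholesterol genes and proteins from Srebf1 mostly on fatty acid genes. In macrophages Srebf1 and several desaturase genes are also targets of the liver X receptors (LXRs), which bind DNA as pairs with RXR.

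Total counts ran from 7880320 to 14957253 in WT and from 17250051 to 25091019 in RXRKO, so depth and genotype moved together. Rxrb fell (log2 fold change -2.85), Lyz2 fell from 15200 to 28.4 CPM (counts scaled to library size), and Rxra stood at 104 and 109 CPM. A count over the whole Rxra gene is no check of whether its floxed segment was deleted. All 10 macrophage markers were tested, with summed levels of 8020 to 8970 CPM in WT and 8590 to 9850 in RXRKO, and 3 rose and 2 fell. Neutrophil markers summed to between 1120 and 1270 CPM in WT and between 1040 and 1170 in RXRKO, and 1 of 9 rose and 3 fell. Of all tested genes 9.77% were called higher and 9.61% lower, both below the shares of the macrophage markers. A similar sum thus does not mean that each marker was unchanged. B cell markers summed to 4.56 to 5.74 CPM in WT and 1.71 to 2.56 in RXRKO, and the 1 tested fell. Adipocyte markers, of a cell rich in lipid synthesis, summed to no more than 0.705 CPM in any library, and stromal markers to no more than 11.2. Of 3 tested stromal markers 1 fell and 0 rose. Of 18 cell cycle genes 16 fell and 0 rose (summed 2580 to 2800 CPM in WT and 1780 to 2020 in RXRKO), and the part of this in the results below was not tested.

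Of the 35 tested members 7 rose, 0 fell and 28 did not pass (edgeR quasi-likelihood test, Benjamini-Hochberg adjusted over all 12011 tested genes, threshold 0.05). The 7 were the regulators Srebf1, Srebf2 and Insig1, the sterol enzyme Sqle, and the fatty acid genes Acss2, Scd2 and Fads2. Across all tested genes 9.77% were called higher and 9.61% lower, against 20.0% and 0% of the members. The median log2 fold change of the members was 0.18, that of all tested genes -0.0048, and 26 of the 35 were above 0, against 49.3% of all tested genes. Levels below are CPM scaled with TMM factors, and log2 fold changes are of RXRKO over WT. The labels call the replicates biological without naming the animals, so the p-values reflect how far these libraries scatter, which may be technical.

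**Figure D1:**
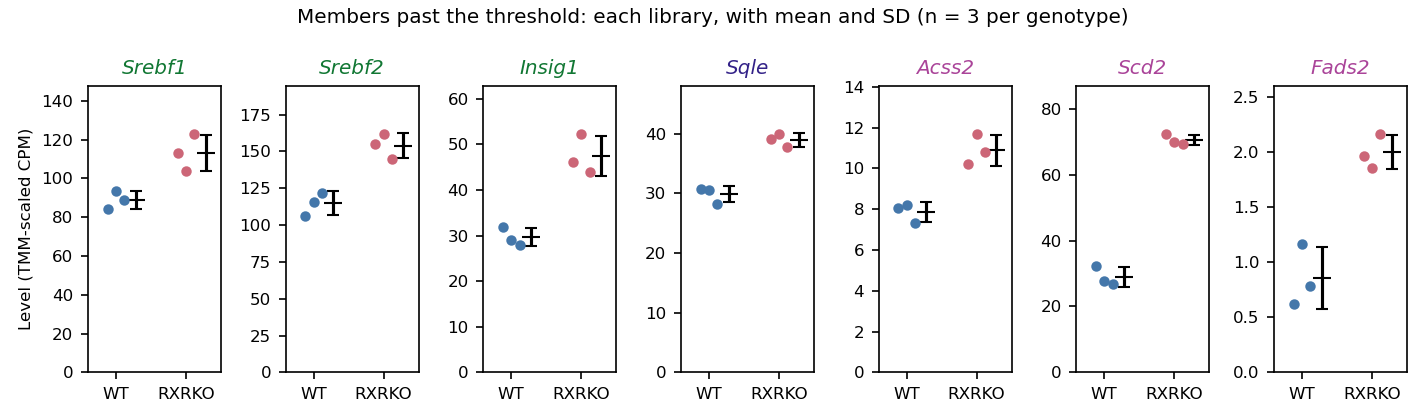
Level of the 7 members past the threshold in each library (TMM-scaled CPM, linear axis from 0), with the mean and SD of 3 libraries per genotype beside the points. In each panel every RXRKO point lies above every WT point, and Scd2 and Fads2 show the widest separation.

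The regulators were the group with the highest share of members past the threshold, 3 of 5. Insig1 (ENSMUSG00000045294, chromosome 5, 28071363 to 28078662 in GRCm38) encodes a sterol-sensing retention protein and is itself an SREBP target. It stood at 31.8, 29.0 and 27.9 CPM in WT replicates 1, 2 and 3 and at 46.0, 52.3 and 43.9 CPM in RXRKO replicates 1, 2 and 3. All RXRKO libraries lay above all WT libraries, as in 19.0% of tested genes. Its log2 fold change was 0.68 (SE 0.104, adjusted p in edgeR = 0.000567), and its adjusted p stayed at or below 0.00332 with any 1 library left out.

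Insig2, whose protein does the same work but whose gene responds to sterols less, did not pass. It gave 37.9, 33.7 and 33.9 CPM in WT and 40.9, 40.5 and 36.9 CPM in RXRKO, so the groups overlapped. Its log2 fold change was 0.17, with a 95% interval from -0.05 to 0.38. Per kilobase of exon Insig1 was 0.926 to 0.967 times Insig2 in the WT libraries and 1.26 to 1.45 times in the RXRKO libraries. The order of the 2 genes thus differed between the genotypes in every library, although neither ratio was tested.

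Srebf2 (ENSMUSG00000022463, chromosome 15, 82147181 to 82205379), which encodes the SREBP of the cholesterol genes, read 106, 116 and 122 CPM in WT and 155, 162 and 145 CPM in RXRKO. The groups did not overlap, and the rise was 1.34-fold in mean level (log2 fold change 0.42, SE 0.0845, edgeR adjusted p = 0.00387). Its call held with each library left out (largest adjusted p = 0.0287). Srebf1 (ENSMUSG00000020538, chromosome 11, 60199089 to 60222581), the lipogenic counterpart, read 84.0, 93.4 and 88.9 CPM in WT and 113, 104 and 123 CPM in RXRKO. Its groups were apart as well, and the fitted log2 change was 0.35 (SE 0.0883, edgeR adjusted p = 0.0138). The Srebf1 call was lost without WT replicate 1 (adjusted p = 0.0816) or RXRKO replicate 1 (0.0599). These gene counts do not separate the transcripts that start at different Srebf1 promoters.

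Scap, the escort, gave 54.5, 66.6 and 55.3 CPM in WT and 67.9, 60.8 and 72.8 CPM in RXRKO. The groups overlapped, and its log2 fold change of 0.20 had a 95% interval from -0.03 to 0.42. Summed over the 5 regulators, the level was 315, 338 and 328 CPM in the WT libraries and 423, 420 and 421 CPM in the RXRKO libraries.

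Promoter sequences from RefSeq (GRCm38.p6, from 250 bases before to 50 after a start) were matched by symbol for 29 of the 36 members, all 5 regulators among them. No promoter matched Sqle, Fdft1, Fdps, Stard4, Scd1, Scd2 or Fads1. Sqle and Scd2, which rose, are thus absent from the motif counts below. Stretches upstream of annotated exons are shown for 2 regulators that rose and for Hmgcs1, a classical SREBP target that did not pass, so that the elements SREBPs use can be compared. Each is printed 5′ to 3′ on the gene's strand, with capitals for matches on either strand to TCACNCCA (the core of a sterol regulatory element), CCAAT (the box bound by NF-Y, a partner of SREBPs) or CACGTG (an E-box).
Insig1, chr5:28071176-28071336, plus strand: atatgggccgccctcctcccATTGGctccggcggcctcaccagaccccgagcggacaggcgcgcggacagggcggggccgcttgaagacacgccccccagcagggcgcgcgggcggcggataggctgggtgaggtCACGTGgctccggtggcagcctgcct
Srebf2, chr15:82147087-82147158, plus strand: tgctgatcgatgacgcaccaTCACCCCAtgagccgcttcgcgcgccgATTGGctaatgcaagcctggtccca
Hmgcs1, chr13:119690101-119690330, plus strand: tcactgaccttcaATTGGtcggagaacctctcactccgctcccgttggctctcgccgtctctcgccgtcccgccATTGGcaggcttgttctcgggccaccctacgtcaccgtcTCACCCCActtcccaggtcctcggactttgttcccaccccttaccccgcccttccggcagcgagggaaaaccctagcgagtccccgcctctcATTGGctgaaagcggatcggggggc

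The Srebf2 stretch holds the sterol element at -162 and a reversed CCAAT box at -135, counted from the start with -1 as the last base before it. The Hmgcs1 stretch holds the same 8 letters of the element at -137 with reversed CCAAT boxes at -237, -176 and -45. The Insig1 stretch holds a reversed CCAAT box at -216 and an E-box at -101. Over the 29 members with a promoter, CCAAT was found in 24 (82.8%), against 41.1% of 27025 genes with a promoter in the same table. The element core TCACNCCA was found in 3 (Hmgcs1, Msmo1 and Srebf2), 10.3% against 4.97%, and CACGTG in 6, 20.7% against 8.09%. The letters AGGTCA repeated in the same direction with 4 bases between, a form of LXR and RXR site, were in 0 of the 29 and in 0.0148% of all genes. With only 4 of 27025 genes matching these exact letters, the 0 cannot show that the members lack such sites. The motifs were chosen after these sequences were seen, some genes have several windows, and a match is letters in a window, not a site. Of the 3 members with the element core, Srebf2 rose, and Hmgcs1 (0.10) and Msmo1 (-0.04) did not pass.

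The sterol arm makes cholesterol from acetyl-CoA and includes Stard4, a cholesterol carrier. Of its 19 members, all tested, 1 rose, 0 fell and 18 did not pass, 5.26% called higher against 9.77% of all tested genes. The median log2 fold change was 0.10, with 12 members above 0 and 7 below. Sqle (ENSMUSG00000022351, chromosome 15, 59315077 to 59331192), the squalene epoxidase that controls entry into the sterol ring steps, was the member that rose. It gave 30.8, 30.6 and 28.3 CPM in WT and 39.1, 40.0 and 37.7 CPM in RXRKO, with no overlap. Its log2 fold change was 0.39 (SE 0.0941, adjusted p in edgeR = 0.0121), and the call was lost without RXRKO replicate 1 (0.0603) or RXRKO replicate 2 (0.0542).

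The mevalonate part of the arm, from acetyl-CoA to farnesyl diphosphate, showed no call in 7 members, with a median of 0.03. Hmgcs1, the synthase that makes HMG-CoA, read 61.9, 67.1 and 52.1 CPM in WT and 67.8, 61.4 and 63.7 CPM in RXRKO. The RXRKO values lay inside the WT range or just above it, and the 95% interval of the log2 fold change ran from -0.13 to 0.32. The kinase Mvk (0.03) and the decarboxylase Mvd (-0.07) were near 0, the kinase Pmvk stood at -0.25, and the thiolase Acat2 at 0.18. The isomerase Idi1 (-0.25) and the farnesyl diphosphate synthase Fdps (0.33) had few reads, 114 and 57 over the WT libraries. Their intervals were wide, from -0.85 to 0.35 and from -0.35 to 1.01, so changes of moderate size in either direction could not be told from 0 in these 2 genes.

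From farnesyl diphosphate to cholesterol 11 members were tested, with a median of 0.20, and Sqle was the call. Besides Sqle, every RXRKO library lay above every WT library for the cyclase Lss (log2 fold change 0.29), the demethylase Cyp51 (0.20) and the last reductase Dhcr7 (0.26), as for 19.0% of all tested genes. Their edgeR adjusted p values were 0.121, 0.171 and 0.121. Lss read 16.4, 13.9 and 13.1 CPM in WT and 17.8, 17.2 and 17.7 CPM in RXRKO, and Dhcr7 24.6, 21.0 and 20.0 CPM against 26.0, 25.4 and 27.1 CPM. Hsd17b7 (0.27), Sc5d (0.21) and Fdft1 (0.09) also had values above 0 without passing. Values below 0 that did not pass were those of the reductase Tm7sf2 (-0.14), the isomerase Ebp (-0.14), the dehydrogenase Nsdhl (-0.09) and the oxidase Msmo1 (-0.04). Stard4 stood at 0.10. Of the 18 members of the sterol arm that did not pass, 17 had a 95% interval within 1 log2 unit of 0 on both sides. Fdps was the exception, with an upper bound of 1.01. Changes as large as that of Sqle (0.39) lie inside this bound, so it does not show that the members were unchanged. The intervals of Lss (0.02 to 0.55) and Dhcr7 (0.02 to 0.51), which are not adjusted for the number of genes, lay above 0.

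**Figure D2:**
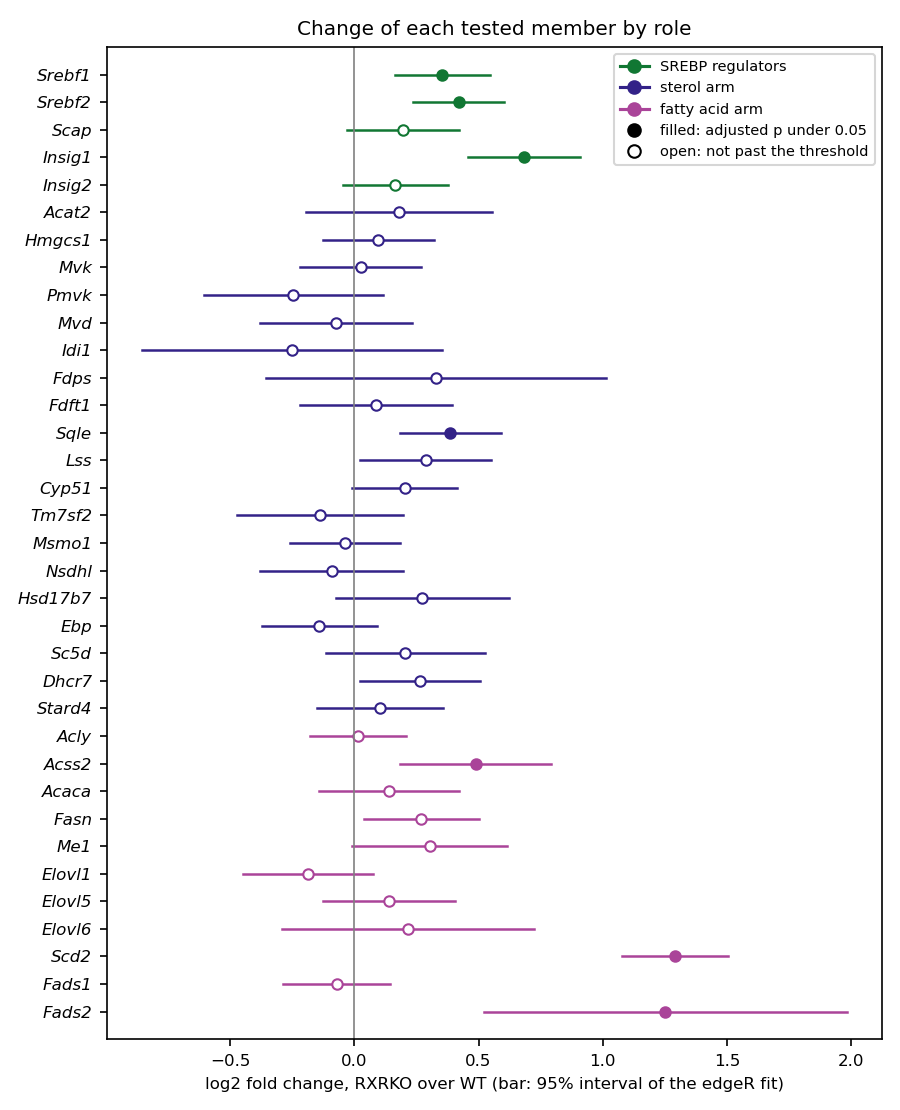
Log2 fold change of RXRKO over WT for the 35 tested members in pathway order, with the 95% interval of the edgeR fit, coloured by role and filled where the adjusted p was under 0.05. The 7 filled points lie above 0, and those of Scd2 (1.29) and Fads2 (1.25) lie farthest out.

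Mevalonate members of the sterol arm stood in much the same order across the replicates of WT. How often all tested genes share that order was not counted, so it cannot be called particular to these members. WT replicate 2 had the highest level of all 7 mevalonate members among the WT libraries, and WT replicate 3 the lowest of 6 of them. The exception was Mvd, lowest in WT replicate 1 (11.9 CPM). The 7 genes summed to 120, 135 and 105 CPM in WT replicates 1, 2 and 3 and to 127, 114 and 122 CPM in the RXRKO libraries. The WT libraries thus differed among themselves by more than the means of the genotypes, 120 and 121 CPM. Over the whole arm, WT replicate 3 was the lowest WT library for 12 of 19 members and WT replicate 2 the highest for 11. These counts include the 7 mevalonate members and likewise have no count over all tested genes beside them. WT replicate 2 was also the lowest WT library for 5 members, 0 of them in the mevalonate part. The arm summed to 452, 476 and 402 CPM in WT and to 463, 459 and 472 CPM in RXRKO, so the RXRKO sums lay within the WT range. Without WT replicate 3 the median log2 fold change of the arm was 0.01, in place of 0.10.

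**Figure D3:**
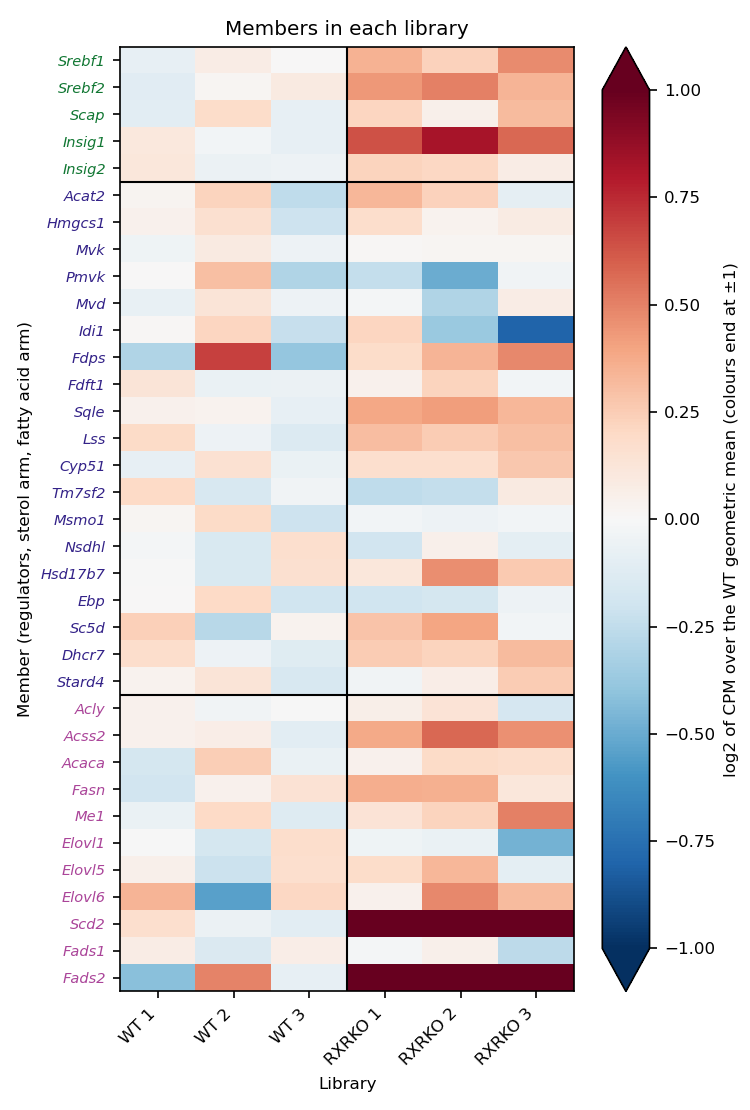
Log2 of the CPM of each tested member over the geometric mean of the 3 WT libraries, by library (columns) and member (rows, split into regulators, sterol arm and fatty acid arm). WT replicate 3 is bluer and WT replicate 2 redder across the mevalonate rows, and the rows of Scd2 and Fads2 are beyond the colour range in all 3 RXRKO columns.

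The fatty acid arm makes, lengthens and desaturates fatty acids. Of its 12 members 11 were tested, 3 rose, 0 fell and 8 did not pass, 27.3% called higher against 9.77% of all tested genes. The median log2 fold change was 0.22, with 9 members above 0 and 2 below. The largest value among the members was that of Scd2 (ENSMUSG00000025203, chromosome 19, 44293674 to 44306864), a stearoyl-CoA desaturase that makes oleate from stearate. It read 32.3, 27.6 and 26.7 CPM in WT and 72.4, 69.8 and 69.3 CPM in RXRKO. The lowest RXRKO library lay far above the highest WT library, and the log2 fold change was 1.29 (SE 0.0979, adjusted p in edgeR = 2.41e-06).

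Scd1, the isoform best known from liver and fat, was listed with 4, 2 and 3 reads in WT and 4, 6 and 10 reads in RXRKO, too few for a test. Per kilobase of exon Scd2 was 69.8 to 122 times Scd1 in WT libraries and 114 to 279 times in RXRKO libraries, ratios that rest on those few Scd1 reads. Of the longest coding Scd2 transcript 11.4% lay in stretches near-identical to a transcript of Scd1 (623 bases at 95.5% identity), so some reads could be placed on either gene.

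Fads2 (ENSMUSG00000024665, chromosome 19, 10062765 to 10101746), the delta-6 desaturase that opens the route to long polyunsaturated fatty acids, rose from a low level. It had 6, 9 and 12 reads in WT and 34, 47 and 40 reads in RXRKO, or 0.622, 1.17 and 0.783 CPM against 1.97, 1.86 and 2.17 CPM. The groups did not overlap (log2 fold change 1.25, SE 0.337, edgeR adjusted p = 0.0205), but the call was lost without WT replicate 1 (0.0967), WT replicate 3 (0.0691) or RXRKO replicate 1 (0.0627). DESeq2 did not call it either (adjusted p = 0.0703). Fads1, the delta-5 desaturase of the same route, was far more abundant and did not pass, at 121, 104 and 120 CPM in WT and 113, 119 and 95.7 CPM in RXRKO. Its log2 fold change was -0.07, with a 95% interval from -0.29 to 0.14. Per kilobase of exon Fads1 was 60.5 to 133 times Fads2 in WT libraries and 30.2 to 43.8 times in RXRKO libraries.

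Acss2 (ENSMUSG00000027605, chromosome 2, 155517948 to 155585724), which turns acetate into acetyl-CoA, was the other member that rose. It read 8.08, 8.21 and 7.31 CPM in WT and 10.2, 11.7 and 10.8 CPM in RXRKO, without overlap (log2 fold change 0.49, SE 0.141, edgeR adjusted p = 0.0284). Its call was lost without WT replicate 1 (0.0735), WT replicate 3 (0.0836), RXRKO replicate 1 (0.0611) or RXRKO replicate 2 (0.122), and in DESeq2 (0.076).

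The main supply and synthesis enzymes did not pass. Acly, which makes acetyl-CoA from citrate, read 187, 178 and 181 CPM in WT and 190, 200 and 162 CPM in RXRKO, a log2 fold change of 0.02 with a 95% interval from -0.18 to 0.21. Fasn, the fatty acid synthase, read 53.6, 63.0 and 67.8 CPM in WT and 78.6, 78.1 and 66.0 CPM in RXRKO, with RXRKO replicate 3 inside the WT range. Its log2 fold change was 0.27 (SE 0.107, adjusted p in edgeR = 0.0986), and it passed without WT replicate 3 (0.0494) or RXRKO replicate 3 (0.0394). The carboxylase Acaca stood at 0.14 and malic enzyme Me1, a source of NADPH, at 0.30. Among the elongases, Elovl5 (0.14) and Elovl6 (0.22) had values above 0 and Elovl1 (-0.19), which lengthens very long chains, a value below 0. RXRKO replicate 3 had the lowest level of 6 of the 11 tested members among the RXRKO libraries, a count not made over all tested genes. The arm summed to 631, 589 and 654 CPM in WT and to 703, 730 and 604 CPM in RXRKO, and RXRKO replicate 3 was the library inside the WT range.

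Set side by side, the fatty acid arm had 3 of 11 tested members called and the sterol arm 1 of 19. The medians differed by -0.12 (sterol minus fatty acid, log2), a difference that was not tested. It was 0.007 after 1 random thinning of all libraries to equal depth and 0.0013 without RXRKO replicate 2. The order of the arms' medians was thus not kept in either setting. The fatty acid median was the value of 1 gene with few reads, Elovl6 (0.22), which stood at -0.011 in that thinning. By library, the sterol median minus the fatty acid median, both against the WT mean, was -0.02, 0.16 and -0.12 in WT and -0.03, -0.28 and -0.10 in RXRKO. The values of RXRKO replicates 1 and 3 lay within the WT range and that of RXRKO replicate 2 below it. The 3 calls of the fatty acid arm numbered 1 (Scd2) in DESeq2.

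**Figure D4:**
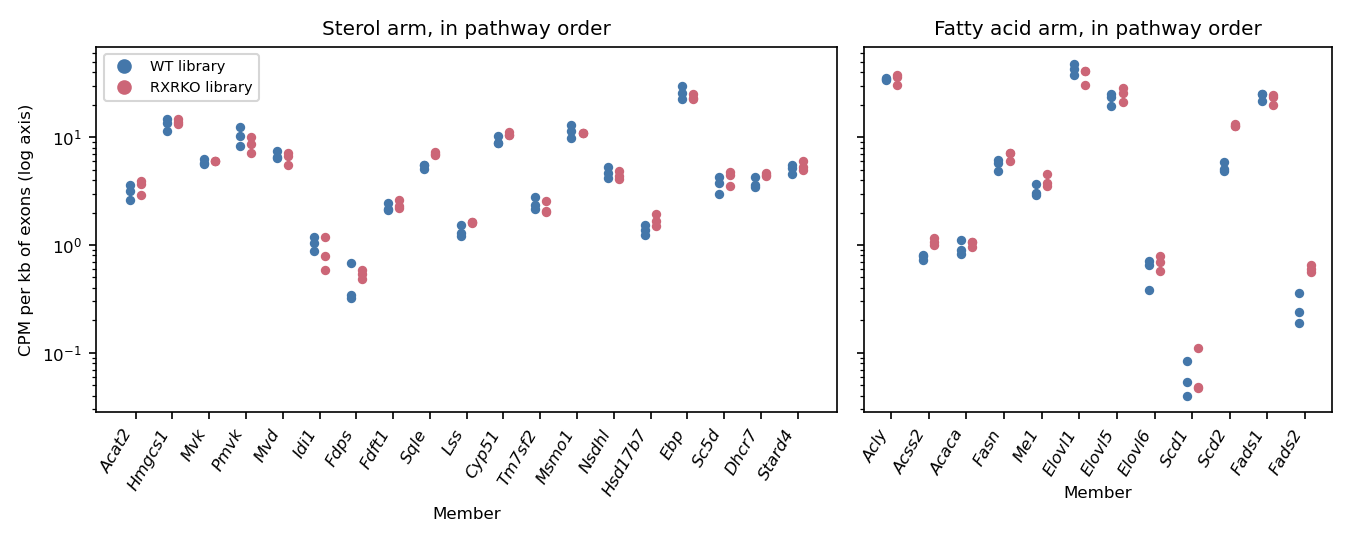
Level of each member per kilobase of exon (CPM per kb, log axis) in the 3 WT and 3 RXRKO libraries, in pathway order for the sterol arm and the fatty acid arm. Members span from Scd1 at the bottom to Elovl1 at the top, and the genotypes separate clearly for Scd2 and Fads2.

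Levels per length ordered the members in much the same way in both genotypes. In the sterol arm Ebp was highest in WT at 25.9 CPM per kb, ahead of Hmgcs1 (13.1), Msmo1 (11.3) and Pmvk (10.3), while Idi1 (1.03) and Fdps (0.45) were lowest. In the fatty acid arm Elovl1 (42.8 CPM per kb in WT), Acly (34.5), Fads1 (23.8) and Elovl5 (22.6) led, and Scd2 went from 5.28 to 12.9 CPM per kb. Srebf2 and Srebf1 were at 16.0 and 15.8 CPM per kb in WT and at 21.4 and 20.1 in RXRKO, so the mRNAs of the 2 factors stood at similar levels in both genotypes. Some levels are uncertain because reads can be shared. In 11 of the 36 members at least 10% of the longest coding transcript lay in stretches of 75 or more bases with at least 95% identity to a transcript of another gene. Fdps shared 91.4% of its transcript, with several pseudogenes, Acat2 65.6%, Acaca 64.3% and Me1 60.1%. Acat2 shares 445 bases with Tcp1, which stood at 241 CPM in WT and 230 in RXRKO, against 8.0 and 8.9 for Acat2. Fdft1 overlaps the cathepsin gene Ctsb over 774 bases, and Ctsb itself stood at 16200 CPM in WT and 21700 in RXRKO, against 9.44 and 9.98 for Fdft1. With these 11 members set aside, the calls that remained were Srebf1, Srebf2, Insig1, Sqle and Fads2, and the median of the fatty acid arm was 0.08 in place of 0.22. Scd2 and Acss2 were among those set aside. Scd1, which shares sequence with Scd2, was listed at 0.29 CPM in WT and 0.337 in RXRKO. Ggt7 and Acss2os, which overlap Acss2, were listed at mean levels of no more than 0.243 CPM in either genotype.

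Other genes of the 2 pathways, carriers and proteases included, came from a pair of wider lists. Of 25 other sterol genes 23 were tested. Of these 2 rose, 0 fell and the other 21 did not pass, and the median was 0.04. The share called higher, 8.7%, was near the 9.77% of all tested genes. Gramd1b, a carrier of plasma membrane cholesterol to the endoplasmic reticulum, was among those that rose. It read 78.2, 77.6 and 79.2 CPM in WT and 112, 117 and 97.3 CPM in RXRKO. The groups did not overlap, and the fitted log2 change was 0.47 (SE 0.0889, edgeR adjusted p = 0.00251). The SREBP proteases Mbtps1 (0.19) and Mbtps2 (0.17) did not pass.

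Of 24 other fatty acid genes 15 were tested. Of these 1 rose, 2 fell and the other 12 did not pass, and the median was -0.0063. The shares called higher (6.67%) and lower (13.3%) stood beside 9.77% and 9.61% of all tested genes, near that background for so few genes. Mid1ip1, an activator of acetyl-CoA carboxylase, rose (0.35, edgeR adjusted p = 0.0109), a call lost without RXRKO replicate 1 (0.0695). Of its transcript 27.1% is shared with the overlapping gene Gm14493, which was listed at 0 CPM in both genotypes. Lpcat3, which puts polyunsaturated chains into phospholipids and is a classical LXR target, fell (log2 fold change -0.96, SE 0.104, edgeR adjusted p = 4.03e-05). It read 60.1, 55.1 and 60.1 CPM in WT and 31.4, 32.7 and 26.2 CPM in RXRKO, so the groups were well apart. Of its transcript 14.6% is shared with the overlapping gene Emg1, which stood at 53.7 CPM in WT and 41.8 in RXRKO. Lpin1, a phosphatidate phosphatase that is both an enzyme of triglyceride synthesis and a coregulator, fell too (-0.60, edgeR adjusted p = 0.00343). Beside these, Nr1h3, which encodes LXR alpha, went from 81.7 to 23.0 CPM. Of the genes named above as LXR targets, Lpcat3 fell and Srebf1 rose in the same libraries. Among the member desaturases Scd2 and Fads2 rose, Fads1 did not pass and Scd1 was not tested. The calls of Srebf1 and Fads2 were not kept with some single libraries left out. Any part of Nr1h3 in these values was not tested.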

How the data were processed

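The members and the lists were chosen with earlier results of these data known. The authors deposited raw counts per gene, which were tested here, and a table of normalized log2 values, which served as an alternative input. Its values above 0, made linear, were a constant multiple of the counts in each column, but a count of 1 was listed as 0 in the RXRKO columns (2422 to 3522 genes per library) and in 0 genes of the WT columns. Per the submitters' processing notes, the build was mm10 and the tools were DESeq and TopHat2 2.0.7. The counting program, its annotation and its use of strand were not given in the sources used here, so reads of overlapping genes cannot be assigned with certainty. Libraries came from 100 ng of RNA each.

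Genes were filtered with filterByExpr (minimum count 10, minimum total 15), scaled with TMM and fitted by genotype in edgeR 4.0.16 (robust quasi-likelihood, R 4.3.3), with Benjamini-Hochberg adjustment over 12011 genes. The fitting code was tested on simulated data. Smallest depth was 7880320 counts. Alternatives were RLE or upper-quartile factors, no count filter, a filter of 1 CPM in 3 libraries, DESeq2 1.42.0, limma 3.58.1 (voom, or the deposited log2 values with a pseudocount of 1), a replicate block, thinning to equal depth, and each library left out. Leaving out members with shared sequence (blastn 2.17.0) was added after the data were seen. Positions and exon lengths are GENCODE M21 on GRCm38. Values in every library are given for members past the threshold and for the regulators. Of the wider lists, up to 4 genes per direction past the threshold are named, by smallest adjusted p, except 1 that is not reported here. Other members, with Mbtps1, Mbtps2 and Emg1, whose library values or changes are printed were chosen after their values were seen.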

Additional observations from a re-analysis of the deposited data

How the results depend on the processing

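For the 7 called members, under settings other than leaving out a library, 57 values kept the call and the direction and 6 kept the direction only. Calls were lost with the replicate block for Srebf1 (adjusted p = 0.0659), Sqle (0.0609), Acss2 (0.0938) and Fads2 (0.0614), and in DESeq2 for Acss2 (0.076) and Fads2 (0.0703). With the replicate block 1375 genes changed in all, and the members higher in RXRKO numbered 2 regulators, 0 of the sterol arm, 1 of the fatty acid arm and 0 of the other fatty acid genes (Mid1ip1 at 0.055). Same-numbered libraries correlated at 0.091, -0.404 and -0.343 in their deviations from the genotype means, and differently numbered ones at -0.181 to 0.441. Such deviations sum to 0 within a genotype, so these values cannot tell whether same-numbered libraries were handled together. DESeq2 called 1 fatty acid member, and DESeq2 and RLE factors each called 1 other sterol gene lower. In 1 random thinning to equal depth, the fatty acid median was 0.11 and the sterol minus fatty acid median 0.007. There, 2 other fatty acid genes were higher. With members of shared sequence left out, 1 fatty acid member was called and the median was 0.078.

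Leaving out single libraries, genes changed in all ran from 1286 (without WT replicate 1) to 2607, with 1383 without RXRKO replicate 1. Called higher were 2 to 3 regulators, 0 to 1 of the sterol arm, 1 to 4 of the fatty acid arm and 0 to 2 other fatty acid genes, and called lower 0 to 1 other sterol genes. The medians ran from 0.29 to 0.39 for the regulators, from 0.11 to 0.25 for the fatty acid arm, and from -0.21 to 0.0013 for the sterol minus fatty acid difference. Members that did not pass changed sign when thinned, Mvk (-0.036) and Elovl6 (-0.011), or with a library left out, where the ranges were -0.051 to 0.10 for Acly, -0.14 to 0.016 for Fads1, -0.0077 to 0.18 for Hmgcs1, -0.15 to 0.057 for Msmo1, -0.15 to 0.035 for Mvd, -0.0076 to 0.067 for Mvk and -0.16 to 0.0058 for Nsdhl. The cause was not tested. Depth limits Scd1, Fads2, Fdps and Idi1 most.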
